A study of Homo sapiens with 12 samples.

Results

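The alpha-arrestins are cytosolic adaptor proteins with an arrestin fold, and the 5 described here are TXNIP, ARRDC1, ARRDC2, ARRDC3 and ARRDC4. They were taken by gene symbol from tables of 40929 symbols, and all 5 were found in each of the 12 libraries and passed the filter on low counts, which left 15104 genes. The libraries came from MDA-MB-231, an established human line of triple-negative breast cancer with the genotype given as wild type, treated for 48 h in 4 groups of 3. The NG group had 10 mM glucose, CAR had 10 mM glucose and 25 µM cariporide, LG had 5 mM glucose, and LGCAR had 5 mM glucose and 25 µM cariporide. Cariporide is an inhibitor of the sodium-proton exchanger NHE1. All groups shared RPMI medium with fetal bovine serum, and the low group still had glucose. The questions were how the family responded to the glucose level, to the drug and to both.

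Alpha-arrestins link membrane proteins to ubiquitin ligases of the NEDD4 family and so steer them into endosomes. TXNIP also binds and inhibits the redox protein thioredoxin, and it limits glucose uptake by removing glucose transporters from the cell surface. Transcription of TXNIP and ARRDC4 is known to follow glucose through the factors MondoA (MLXIP) and ChREBP (MLXIPL), which bind DNA with their partner MLX when glucose 6-phosphate accumulates. ARRDC3 acts on the beta2-adrenergic receptor and on integrin beta4, and has been described as a suppressor of invasion in breast cancer. ARRDC1 recruits the budding machinery to the plasma membrane and forms extracellular vesicles. ARRDC2 is less well characterised.

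TXNIP lies on chromosome 1 (GRCh38.p14, 145992435 to 145996579, minus strand) and ARRDC4 on chromosome 15 (97960703 to 97973833, plus strand). ARRDC1 lies on chromosome 9 (137605686 to 137615360, plus strand), ARRDC2 on chromosome 19 (18001124 to 18014102, plus strand) and ARRDC3 on chromosome 5 (91368631 to 91383317, minus strand). In GENCODE 29, neither TXNIP nor ARRDC4 shared exon sequence with another gene. Of the exon length of ARRDC2, 9.53% overlapped an opposite-strand gene, ARRDC3 shared 2.94% with its antisense gene, and ARRDC1 shared 4.79% with a gene on the same strand. For the counting step, use of the strand is not stated in the labels or notes, so reads in these stretches could belong to either gene.

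The promoters of TXNIP and ARRDC4 are shown because these were the members whose RNA differed between the glucose levels. Each sequence is the RefSeq window of GRCh38.p14 from 250 bases before to 50 bases after the gene start, read 5′ to 3′ on the gene's strand. It covers chr1:145996530-145996829 (minus strand) for TXNIP and chr15:97960453-97960752 (plus strand) for ARRDC4. Capitals mark the letters searched on both strands. The first motif was the E-box CACGTG. The next was a pair of copies of CACGNG with 5 bases between them. The last was the CCAAT box, which reads as ATTGG on the other strand.
TXNIP: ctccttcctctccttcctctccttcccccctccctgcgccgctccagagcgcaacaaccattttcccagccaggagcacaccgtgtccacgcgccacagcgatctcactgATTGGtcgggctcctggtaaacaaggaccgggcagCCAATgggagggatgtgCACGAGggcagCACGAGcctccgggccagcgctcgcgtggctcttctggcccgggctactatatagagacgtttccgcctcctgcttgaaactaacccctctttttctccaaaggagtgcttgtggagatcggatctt
ARRDC4: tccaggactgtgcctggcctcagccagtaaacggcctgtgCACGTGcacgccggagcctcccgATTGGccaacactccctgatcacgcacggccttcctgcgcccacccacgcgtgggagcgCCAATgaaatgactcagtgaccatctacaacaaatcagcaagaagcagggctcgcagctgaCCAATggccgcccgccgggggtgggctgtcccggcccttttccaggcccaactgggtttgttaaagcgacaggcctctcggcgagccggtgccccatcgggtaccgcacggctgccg

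MondoA and ChREBP are known to bind paired E-box-like elements, and NF-Y binds CCAAT boxes. The TXNIP window shown held 1 repeat of CACGNG with 5 bases between, at positions -88 to -72 from the start. It also held 2 CCAAT boxes, at -140 to -136 on the reverse strand and -105 to -101 on the forward strand. A second RefSeq window of TXNIP, chr1:145995695-145995994, held none of the searched motifs. The ARRDC4 window held 1 CACGTG at -210 to -205 and 3 CCAAT boxes, and it held no CACGNG repeat. None of these matches overlapped another. Over all 35116 RefSeq windows of the same length, 0.057% held the CACGNG repeat, 7.26% held CACGTG and 34.6% held CCAAT. None of the windows of ARRDC1, ARRDC2 and ARRDC3 held CACGTG or the repeat, and each of these genes had 1 window with a single CCAAT. A match is a description of the letters and not a measured binding site, and the form of the repeat was chosen with the TXNIP promoter known.

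Library totals ran from 18069004 to 24837409 counts. Values below are CPM after TMM scaling, the reads of a gene scaled to library size, which measure a gene's share of the counted RNA. A change in RNA per cell cannot be told apart from a change in that share. The line's identity was checked on fixed markers: the lowest values over the libraries were 1611 CPM for VIM, 641 for CD44 and 630 for AXL, while PGR was at 0 counts in all 12, ESR1 had at most 4 counts and the T cell gene CD3E had none. The third receptor of the triple-negative definition, ERBB2, was at 55.3 to 67.0 CPM, and the epithelial gene EPCAM was at 8.74 to 13.8 CPM. SPARC, also listed as a marker of the line, was at only 0.20 to 0.91 CPM. Markers of other cells were low but not all absent. The endothelial gene PECAM1 was at 1.41 to 2.47 CPM and the smooth muscle gene ACTA2 at 1.62 to 3.14 CPM. The leukocyte gene PTPRC was at 0.041 to 0.33 CPM, VWF had at most 7 counts and MYH11 at most 2. The source of these reads was not tested. Cytosolic ribosomal RNA held 7.10% to 11.5% of the counts and was highest in NG 1 (11.2%) and LGCAR 3 (11.5%). The labels do not say whether replicates were separate cultures, and the spread behind the p-values may thus be technical.

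Compared per kilobase of exon, TXNIP was the most abundant of the 5 in NG. Its level there was 72.8 ± 3.44 CPM per kilobase (SD, n = 3), against 12.4 ± 0.275 for ARRDC3, 8.03 ± 0.137 for ARRDC1, 4.002 ± 0.0676 for ARRDC2 and 1.46 ± 0.142 for ARRDC4. No neighbours in that order overlapped in NG or CAR. In LG the levels of TXNIP (11.2 to 13.8 CPM per kilobase) and ARRDC3 (11.7 to 12.7) overlapped, and in LGCAR TXNIP (22.03 to 26.09) again lay above ARRDC3 (10.8 to 12.5). Of the summed per-kilobase level of the 5 genes, TXNIP held 73.7% ± 1.20 in NG and 73.1% ± 0.357 in CAR (SD, n = 3 each). At 5 mM its share was 34.004% ± 2.95 in LG and 49.6% ± 2.97 with cariporide. The sum itself was 98.7 ± 3.05 CPM per kilobase in NG and 95.4 ± 3.07 in CAR, against 37.6 ± 0.915 in LG and 47.9 ± 1.54 in LGCAR.

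**Figure D1:**
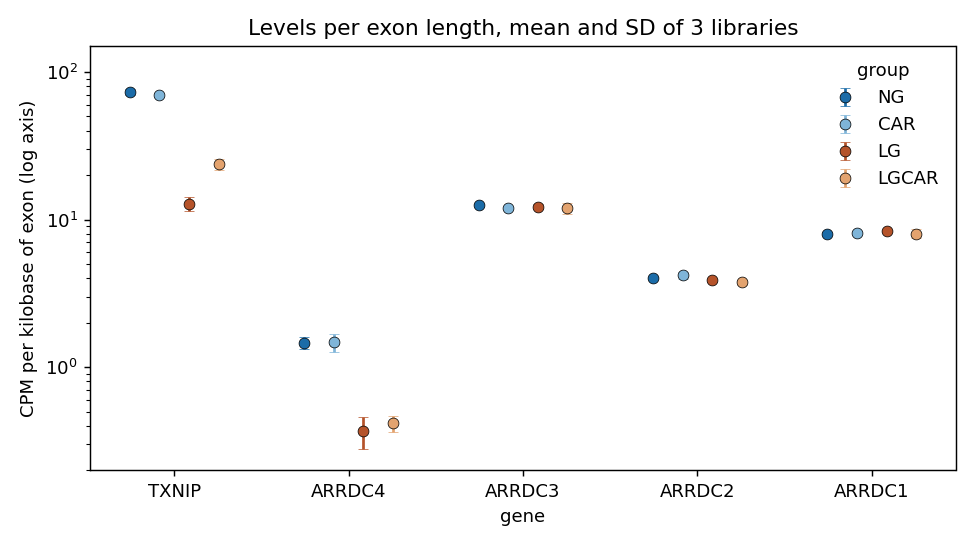
Level of each alpha-arrestin gene in CPM per kilobase of exon (log axis) by group; points are means and bars are the SD of 3 libraries. TXNIP stood at 72.8 in NG and 12.8 in LG, beside ARRDC3 at 12.4 and 12.2, while ARRDC4 was the lowest in every group.

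TXNIP separated the groups by glucose and, at 5 mM, by drug. Its values were 255, 259 and 278 CPM in NG 1 to 3, and 263, 249 and 245 CPM in CAR 1 to 3. In LG they were 40.6, 49.98 and 48.6 CPM, and in LGCAR 84.3, 79.9 and 94.6 CPM. NG and CAR overlapped, every LG library lay below every other library, and the 3 LGCAR libraries lay between LG and the 10 mM groups without touching either. Raw counts behind these values were 5351 to 6704 per library at 10 mM and 970 to 1778 at 5 mM.

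ARRDC4 showed the same split by glucose at a far lower count. It was at 6.31, 6.24 and 5.27 CPM in NG and at 6.95, 5.33 and 5.67 CPM in CAR. The LG libraries had 1.72, 1.09 and 1.70 CPM and the LGCAR libraries 1.52, 1.63 and 1.91 CPM. Both 5 mM groups lay below both 10 mM groups, and LG and LGCAR overlapped. These values rest on 123 to 177 counts per library at 10 mM and on 25 to 41 counts at 5 mM, so counting error was large in the low groups.

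ARRDC3, ARRDC1 and ARRDC2 had nearly level values. ARRDC3 was at 62.8, 60.1 and 61.3 CPM in NG and 58.1, 59.4 and 59.4 in CAR. At 5 mM it was at 62.5, 60.3 and 57.7 CPM without the drug and 61.8, 61.7 and 53.4 with it. Its lowest value was in LGCAR 3, the library with the highest share of ribosomal RNA. ARRDC1 ran from 28.2 to 32.5 CPM over all 12 libraries, with its lowest value in LGCAR 2 and its highest in LG 1. ARRDC2 ran from 16.8 CPM in LGCAR 3 to 20.5 CPM in CAR 1. Fitted levels of these genes in CAR, LG and LGCAR lay between 94.0% and 104% of NG, the lowest being ARRDC2 in LGCAR and the highest ARRDC2 in CAR.

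**Figure D2:**
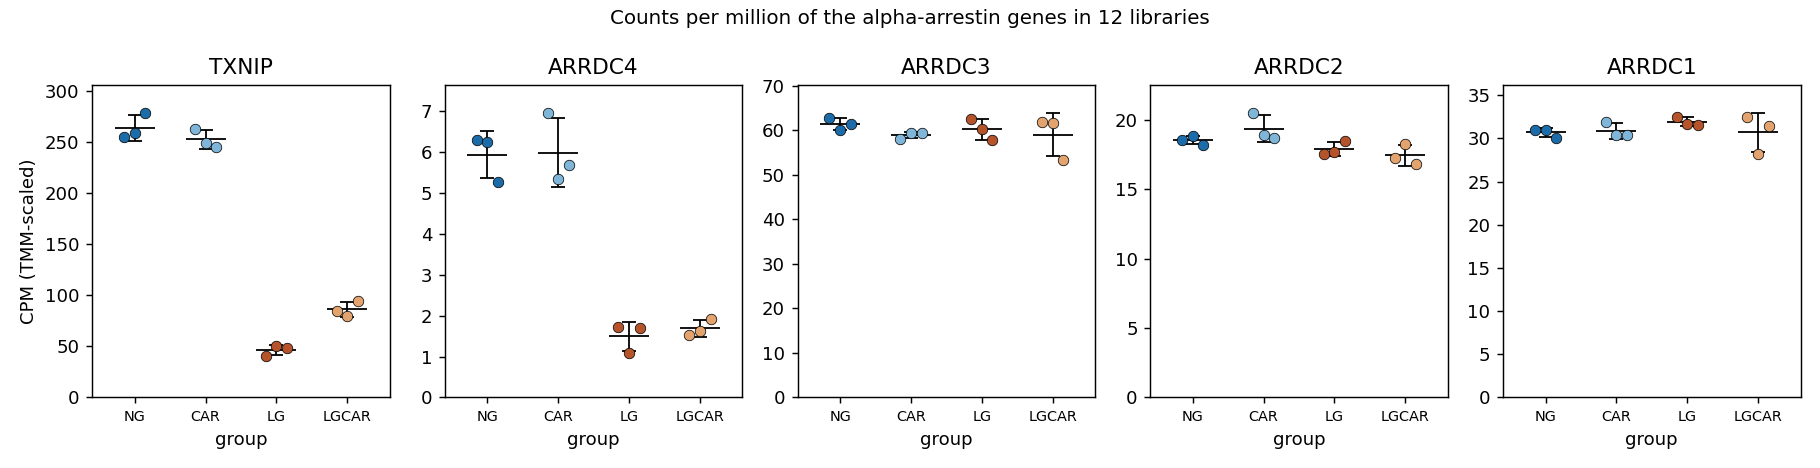
CPM of each gene (vertical axes from 0, scaled per gene) in the 12 libraries by group; points are libraries, and the horizontal line and bar are the mean and SD of 3. TXNIP and ARRDC4 drop at 5 mM glucose (LG and LGCAR), TXNIP is higher in LGCAR (79.9 to 94.6) than in LG (40.6 to 49.98), and the other 3 genes stay nearly level.

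Without the drug, the lower glucose level (LG) was set against NG. TXNIP in LG was at 17.6% of its NG level, a log2 fold change of -2.51 (95% interval -2.67 to -2.34). ARRDC4 was at 25.3% of its NG level, -1.98 (-2.35 to -1.61). By edgeR's quasi-likelihood test, adjusted over all 15104 genes, both fell (edgeR adjusted p = 7.91e-12 and 2.58e-05), and the other 3 members were not called. Of the 5 members 2 were called, where 1.73% of all tested genes were (261, or 147 with the replicate number as a block, where both members were also called), and TXNIP and ARRDC4 had the smallest and the next smallest p of the whole table. They were also 2 of only 6 called genes that differed by more than 2-fold.

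For the uncalled members the intervals limited the change with glucose to a narrow band. ARRDC1 differed by 0.06 on the log2 scale (95% interval -0.07 to 0.18), ARRDC2 by -0.05 (-0.19 to 0.09) and ARRDC3 by -0.03 (-0.15 to 0.09). In linear terms these bounds run from 12.2% lower for ARRDC2 to 13.4% higher for ARRDC1. ARRDC1 was above NG in every LG library (31.6 to 32.5 against 30.1 to 31.0 CPM), a separation that 19.4% of tested genes showed in one direction or the other. The median log2 fold change of the 5 members was -0.05, against 0.01 over all tested genes.

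At 10 mM glucose no change with cariporide was detectable in the family. No member was called between CAR and NG, nor was any other gene by edgeR's test (0% of 15104), where 684 genes had an unadjusted p under 0.05, DESeq2 called 1 and limma-voom 0. TXNIP in CAR was at 95.7% of its NG level, with a log2 fold change of -0.06 (95% interval -0.21 to 0.09), so a change beyond 13.8% lower or 6.26% higher lies outside the interval. ARRDC4 differed by 0.02 (-0.29 to 0.32), a wider interval. ARRDC4 had the lowest counts of the 5 genes and also the largest fitted spread between libraries, 10.5% against 4.13% to 6.69%. ARRDC3 was lower in all 3 CAR libraries than in any NG library (58.1 to 59.4 against 60.1 to 62.8 CPM), which 9.11% of tested genes were in either direction, and its difference of -0.06 (-0.18 to 0.06) was not called.

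Cariporide at 5 mM glucose raised TXNIP. LGCAR libraries had 1.86-fold the TXNIP level of LG libraries, a log2 fold change of 0.90 (95% interval 0.73 to 1.06, edgeR adjusted p = 4.6e-05), with all 3 LGCAR values above all 3 LG values. TXNIP was the only gene that edgeR's test called in this comparison (1 of 5 members, and 0.00662% of the 15104 tested genes), with 1801 genes at an unadjusted p under 0.05. Limma-voom also called 1 gene and DESeq2 called 20, and TXNIP was called by both. ARRDC4 differed by 0.17 (-0.27 to 0.62) and was not called. ARRDC1 differed by -0.06 (-0.18 to 0.07), ARRDC2 by -0.04 (-0.18 to 0.10) and ARRDC3 by -0.03 (-0.15 to 0.09), none of them called. The median over the 5 members was -0.03, against 0.00 over all tested genes.

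The response of TXNIP to the drug differed between the glucose levels. The change with cariporide at 5 mM minus that at 10 mM was 0.96 on the log2 scale for TXNIP (SE 0.105, 95% interval 0.74 to 1.18, edgeR adjusted p = 0.00138). Here too TXNIP was the only gene called by edgeR (1 of 5 members, and 0.00662% of all tested genes), with 473 genes at an unadjusted p under 0.05, 1 gene called by limma-voom and 4 by DESeq2. The same difference was 0.15 for ARRDC4 (-0.39 to 0.70), 0.03 for ARRDC3 (-0.15 to 0.20), -0.07 for ARRDC1 (-0.24 to 0.11) and -0.10 for ARRDC2 (-0.29 to 0.09). None of these 4 was called. Cytosolic ribosomal RNA made up 8.65% ± 0.649 of the counts in LG (SD, n = 3) and 10.2% ± 1.12 in LGCAR, and without ribosomal RNA genes the TXNIP values were 0.89 for LGCAR against LG and 0.96 for the interaction. Without NG 1 and LGCAR 3, the libraries richest in ribosomal RNA, they were 0.82 and 0.92, and TXNIP was still called.

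**Figure D3:**
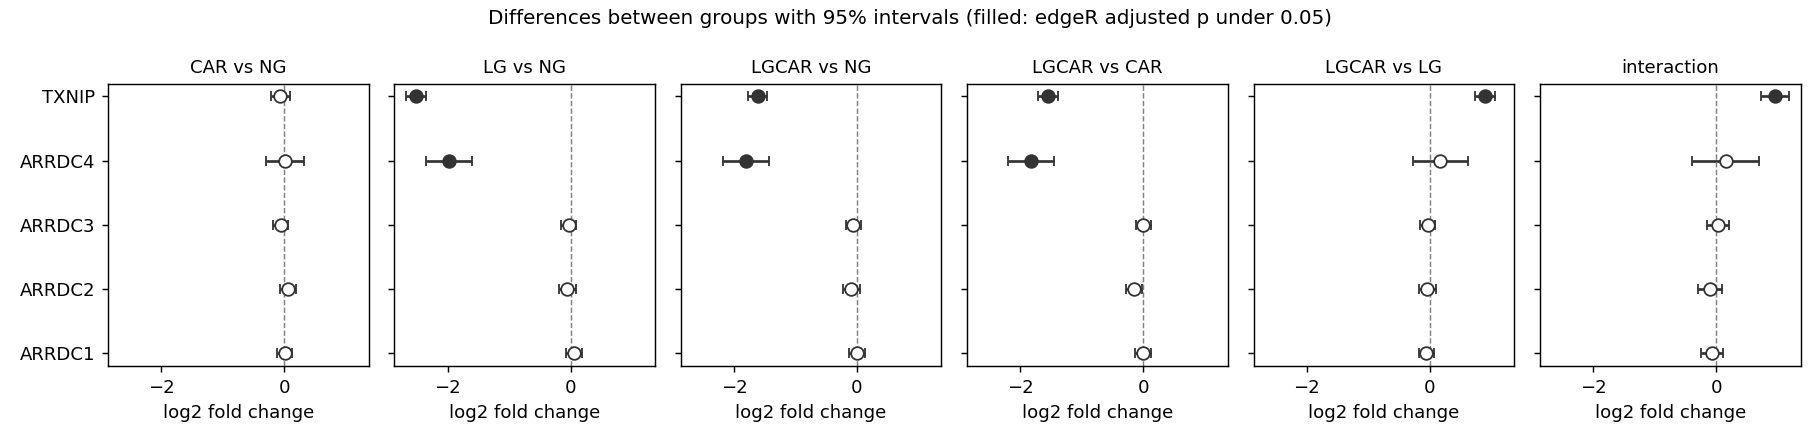
Log2 fold change (horizontal axis) of each gene in 5 comparisons of groups and in the interaction; bars are 95% intervals and filled points have an edgeR adjusted p under 0.05. TXNIP and ARRDC4 lie left of 0 wherever 5 mM is compared with 10 mM, and only TXNIP lies right of 0 with its interval in LGCAR against LG (0.90) and the interaction (0.96).

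The ratio of TXNIP to ARRDC4 within each library compared the responses of the pair directly. As a ratio of CPM it ran from 40.4 to 52.8 in NG and from 37.9 to 46.7 in CAR, then from 23.7 to 45.96 for LG libraries and 49.0 to 55.4 for LGCAR libraries. The mean ratio was 32.8 ± 11.7 for LG and 51.3 ± 3.55 for LGCAR (SD, n = 3 each), and the groups did not overlap. An exact two-sided permutation test of that difference gave p = 0.1 (0.2 adjusted over 4 such comparisons), and 0.1 is the smallest p that 3 against 3 libraries can give. The ratio in LG rests on ARRDC4 counts of 25 to 41, and the highest ratio in LG was that of LG 2, with 25 counts.

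With the drug at 5 mM, TXNIP was still below both 10 mM groups. In LGCAR it was at 32.7% of the NG level (log2 fold change -1.61, 95% interval -1.77 to -1.46, edgeR adjusted p = 4.32e-09) and at 34.1% of the CAR level (-1.55, -1.71 to -1.39, edgeR adjusted p = 7.8e-09). ARRDC4 in LGCAR was at 28.5% of NG (-1.81, -2.18 to -1.44, edgeR adjusted p = 4.62e-05) and at 28.2% of CAR (-1.83, -2.20 to -1.45, edgeR adjusted p = 4.48e-05). In both comparisons 2 of 5 members were called, both lower, where 8.75% of all tested genes were called between LGCAR and NG and 1.65% between LGCAR and CAR. The member medians were -0.09 against NG and -0.15 against CAR, beside 0.01 over all tested genes in both. These comparisons share libraries with those above and with each other.

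The remaining members were not called in LGCAR against either 10 mM group. ARRDC2 came nearest, with a log2 difference of -0.15 from CAR (95% interval -0.29 to -0.01, unadjusted p = 0.0324, edgeR adjusted p = 0.236) and no overlap between 16.8 to 18.3 CPM in LGCAR and 18.7 to 20.5 CPM in CAR. A lack of overlap was seen for 25.3% of tested genes in that comparison. ARRDC1 differed from NG by 0.00 (-0.13 to 0.13) and ARRDC3 by -0.06 (-0.18 to 0.07). Against CAR the values were -0.01 (-0.13 to 0.12) for ARRDC1 and 0.00 (-0.12 to 0.12) for ARRDC3.

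**Figure D4:**
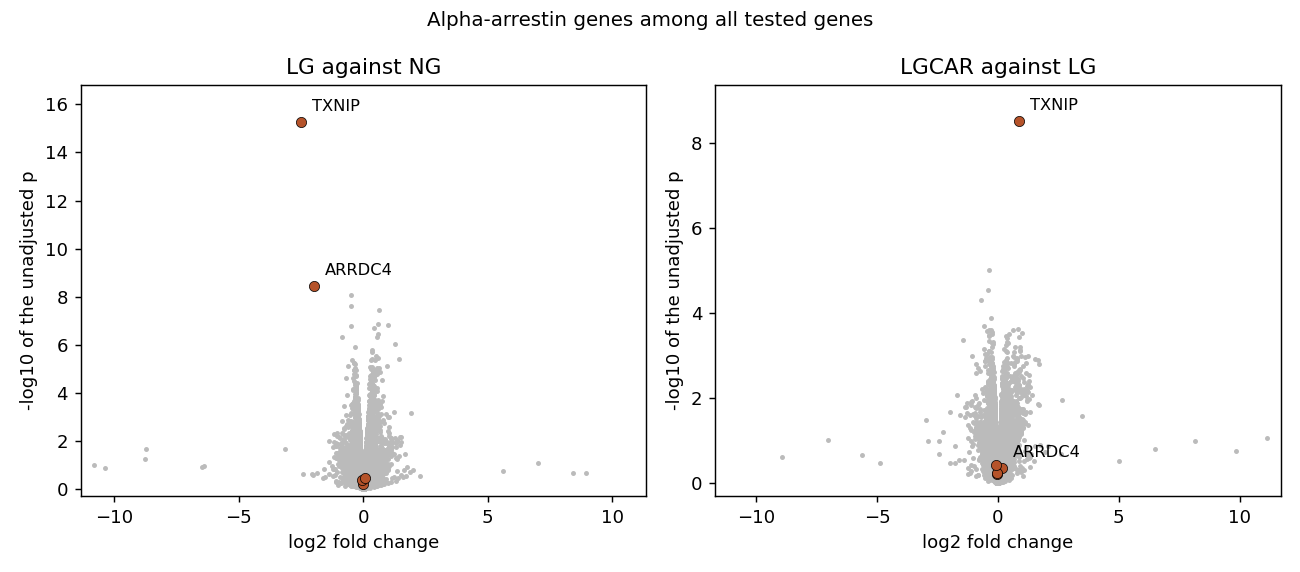
Log2 fold change (horizontal axis) against -log10 of the unadjusted edgeR p (vertical axis) for 15104 genes in 2 comparisons; coloured points are the 5 alpha-arrestin genes. TXNIP and ARRDC4 head the left panel (LG against NG), TXNIP alone stands above all other genes in the right panel (LGCAR against LG), and the remaining members lie near the base.

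No factor known to drive TXNIP and ARRDC4 from glucose was called at the RNA level. Depending on the comparison, 0% to 8.75% of all tested genes were called. MLXIP (MondoA) was at 89.2 ± 6.38 CPM in NG and 98.5 ± 9.71 in CAR, against 89.0 ± 11.8 in LG and 100.1 ± 5.24 in LGCAR. Its partner MLX was at 66.7 ± 4.49 CPM in NG and 59.8 ± 1.19 in LGCAR, and MLXIPL (ChREBP) was at 4.01 ± 1.01 CPM in NG and 4.38 ± 0.129 in LG (SD, n = 3 each). The list of these factors, related repressors and known targets other than the members had 27 symbols, of which 21 were tested. Between LG and NG 2 of the 21 fell and none rose, where 1.73% of all tested genes were called, and the list median was 0.01, as over all genes. KLF10, a transcriptional repressor induced by TGF-beta, was at 55.1 ± 0.324 CPM in NG and 39.1 ± 1.39 in LG, with a log2 fold change of -0.49 (edgeR adjusted p = 9.27e-05). PFKFB3, a kinase that stimulates glycolysis, had -0.29 (edgeR adjusted p = 0.0106) and lost its call without LG 2 (edgeR adjusted p = 0.0646) and when both NG 1 and LGCAR 3 were left out (0.0732).

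KLF10 was at 33.1 ± 0.888 CPM in LGCAR, a difference of -0.24 from LG on the log2 scale (95% interval -0.35 to -0.13) that was not called (edgeR adjusted p = 0.282), where TXNIP had 0.90. It fell, with a log2 fold change of -0.73 from NG (edgeR adjusted p = 7.65e-07) and -0.69 from CAR (edgeR adjusted p = 1.83e-06). Of the 21 genes of that list, 1 fell and 2 rose between LGCAR and NG, where 8.75% of all tested genes were called. Between LGCAR and CAR 1 fell and none rose, where 1.65% were called. The risers were ACACB and FASN, enzymes of fatty acid synthesis, with log2 fold changes of 0.43 and 0.35 (edgeR adjusted p = 0.0399 and 0.0275). Leaving out any 1 of the 6 libraries ended the call of ACACB, and any but NG 1 that of FASN. The list median was 0.06 between LGCAR and NG and 0.10 between LGCAR and LG. No gene of the list was called between CAR and NG, between LGCAR and LG or in the interaction. Of all tested genes 0%, 0.00662% and 0.00662% were called there.

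Genes for the proteins that alpha-arrestins bind were described by list. None of the 9 NEDD4-family ligases was called in any of the 6 comparisons, where 0% to 8.75% of all tested genes were called. Among them ITCH, the ligase that ubiquitinates TXNIP, was at 121 ± 7.80 CPM in NG and 124 ± 11.4 in LG. The median log2 fold change of the 9 ligases was 0.08 in LG against NG and 0.10 in LGCAR against NG. Of 9 genes of thioredoxin and partners of TXNIP, none was called between LG and NG, where 1.73% of all tested genes were. Between LGCAR and NG 1 rose and 1 fell, where 8.75% of all tested genes were called. The list medians were -0.06 and -0.08. The gene that fell was DDIT4, an inhibitor of mTORC1 (-0.20, edgeR adjusted p = 0.0362). TXN, the thioredoxin that TXNIP binds, was at 248 ± 18.1 CPM in NG, 232 ± 24.1 in LG and 209 ± 2.62 in LGCAR, and it was not called (edgeR adjusted p = 0.0617 for LGCAR against NG).

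Among 11 tested genes of membrane cargo and sorting partners, 1 rose between LG and NG and none fell, where 1.73% of all tested genes were called, with a list median of 0.04. This was ITGB4, integrin beta4 and a known cargo of ARRDC3, at 120.5 ± 7.60 CPM in NG and 149.7 ± 9.52 in LG (log2 fold change 0.31, edgeR adjusted p = 0.0118). It was also higher in LGCAR than in NG (0.35, edgeR adjusted p = 0.00514) and in CAR (0.28, edgeR adjusted p = 0.0246). Leaving out any 1 of NG 2, NG 3, LG 1 and LG 2 ended the call in LG against NG, and that against CAR without CAR 1, CAR 3, LGCAR 1, LGCAR 2 or LGCAR 3. Fitting LG and NG alone also ended the first (edgeR adjusted p = 0.0525), and leaving out both NG 1 and LGCAR 3 the second (edgeR adjusted p = 0.114). Between LGCAR and NG 2 genes of that list rose and 1 fell, where 8.75% of all tested genes were called: INSR, the insulin receptor, had 0.29 (edgeR adjusted p = 0.0375), and SLC2A1, the glucose transporter GLUT1 that TXNIP draws from the membrane, had -0.19 (edgeR adjusted p = 0.0263). SLC2A1 was at 476 ± 9.02 CPM in NG (SD, n = 3), against 430 ± 16.8 in LG and 418 ± 10.2 in LGCAR.

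Of 6 other tested genes with an arrestin fold, a list that holds the beta-arrestins and VPS26 subunits of retromer, 1 was called in 1 comparison: ARRB1, a beta-arrestin, was higher in LGCAR than in NG by 0.21 (edgeR adjusted p = 0.0332), where 8.75% of all tested genes were called, and the list median there was 0.09. ARRDC5, the remaining alpha-arrestin, had 0 counts in all 12 libraries. Taken alone, 1 library with 0 counts still allows an expected count of up to 3. Between LGCAR and NG the calls of ACACB, FASN, DDIT4, SLC2A1, INSR and ARRB1 were all lost without NG 2, NG 3, LGCAR 1 or LGCAR 3. Without LGCAR 2 only INSR of these was still called, and without NG 1 the calls of ACACB and ARRB1 were lost. With both NG 1 and LGCAR 3 left out none of these genes was called (edgeR adjusted p from 0.0633 to 0.155), and without a filter on low counts FASN and ARRB1 were not (0.0627 each).

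The genes most like each member over the 12 libraries were found by Pearson's r of log2(CPM + 1) over those whose mean reached 5 CPM. For TXNIP these were TNFRSF10D, a decoy receptor for TRAIL (r = 0.98), MAT2A, which makes S-adenosylmethionine (0.97), and FEN1, a flap endonuclease (0.97). For ARRDC4 they included SLC1A5, a glutamine transporter (0.96), and MYEOV (0.96). TXNIP and ARRDC4 had r = 0.95 with each other, which put TXNIP in place 4 for ARRDC4, and ARRDC4, whose mean of 3.78 CPM was under the limit, would have been in place 6 for TXNIP. TXNIP and ARRDC4 did not overlap between the glucose levels, and r over all 12 libraries includes that difference. No r was computed within a level.

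The changes of these genes were smaller than that of TXNIP. Between LG and NG the log2 fold change was -2.51 for TXNIP. It was -0.51 for TNFRSF10D, -0.35 for MAT2A, -0.28 for FEN1, -0.34 for MYEOV and -0.20 for SLC1A5. All of these genes were called, where 1.73% of all tested genes were. Those other than TXNIP had been picked for likeness to TXNIP or ARRDC4 over these same libraries. Their direction, their calls and any separation of LGCAR from LG thus follow in large part from that choice. Between LGCAR and LG, TNFRSF10D differed by 0.10 (95% interval -0.03 to 0.23), MAT2A by 0.08 (-0.02 to 0.18) and FEN1 by 0.11 (0.00 to 0.21), none of them called, while all 3 LGCAR libraries lay above all 3 LG libraries for each, and 21.3% of tested genes did not overlap in that comparison. MYEOV differed by 0.04 (-0.07 to 0.15) and SLC1A5 by -0.03 (-0.12 to 0.06) there, and neither was called.

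The level members had weaker matches. The highest r was 0.90 for ARRDC2, with ZCCHC10 and ASIC3, 0.88 for ARRDC3, with PEX3, and 0.83 for ARRDC1, with SCHIP1. After these came TMEM222 for ARRDC2 (0.89), the read-through transcript STAG3L5P-PVRIG2P-PILRB (0.87) and POLR1F (0.83) for ARRDC3, and KDM4C and TTLL3 (0.82 each) for ARRDC1. ARRDC2 had r = 0.61 with TXNIP and 0.73 with ARRDC4, whereas ARRDC3 had 0.02 and 0.06 and ARRDC1 -0.30 and -0.17.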

How the data were processed

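RNA was measured by RNA sequencing in 12 libraries of MDA-MB-231. The deposited values are raw counts per gene symbol, 1 table for each library. The submitters' processing notes name GRCh38 and the tools fastp, GATK, Salmon and STAR. Which of them made the counts, and in which version, is not stated there.

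CPM with TMM scaling was computed, filterByExpr left 15104 genes, and edgeR 4.0.16 (R 4.3.3) fitted 1 mean a group over the 12 libraries and tested by robust quasi-likelihood, p-values being adjusted by Benjamini and Hochberg for each comparison and called under 0.05. SE is the log2 fold change over the root of F, and intervals are 95%. Alternatives used DESeq2 1.42.0 and limma-voom (limma 3.58.1). Figures used matplotlib 3.10.9 in Python 3.11.15.

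The members, the 5 gene lists and the tests were chosen with earlier results of these data known. Named genes were all members, 6 fixed genes, up to 3 called genes of each list with the smallest p in each comparison, and the 3 genes most like each member. Some genes that this rule names are not reported here. Of 67 listed symbols 65 were in the tables. Exon lengths are unions over GENCODE 29, coordinates and promoters are from RefSeq (GRCh38.p14), where all 5 members were found. No label says that replicate numbers pair libraries. Deviations from the group means correlated over 0.1 in all 3 same-numbered pairs only between NG and LG (0.24, 0.13 and 0.30). Replicate pairs differed by more than counting error (chi-square per degree of freedom 2.70 to 22.7 over 12 pairs).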

Additional observations from a re-analysis of the deposited data

Results flagged for a closer look

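The change of TXNIP with cariporide stood out because it differed between the glucose levels. This change with cariporide was -0.06 on the log2 scale at 10 mM glucose and 0.90 at 5 mM, and the test of the difference itself gave 0.96 (edgeR adjusted p = 0.00138). The adjusted p was at most 0.0104 over the 21 alternatives of that test, with log2 differences from 0.86 to 1.01. All 3 LGCAR libraries lay above all 3 LG libraries, while CAR and NG overlapped. Without ribosomal RNA genes the difference was 0.96.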

How the results depend on the processing

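The number of members called in each of the 6 comparisons was the same under every alternative run: other scalings, other filters, DESeq2, limma-voom, the groups compared alone (not for the interaction), ribosomal RNA genes left out, NG 1 and LGCAR 3 left out together, and each library left out. ARRDC4 counts of 25 to 41 in LG limit what can be said of its response to the drug.

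The count over all genes moved more. Between LG and NG it was 261, 83 to 364 with 1 library left out (under 1.5 times only without LG 3), 118 with the groups alone and 87 without NG 1 and LGCAR 3. Between LGCAR and NG it was 1322, 136 to 1544 with 1 library left out (moved by NG 2, NG 3 and each LGCAR library), 3542 with the groups alone and 263 without NG 1 and LGCAR 3. Between LGCAR and CAR it was 249, 51 to 188 with 1 library left out (moved by CAR 3 and each LGCAR library), 391 without a filter, 416 by DESeq2 and 55 without NG 1 and LGCAR 3. Between LGCAR and LG it was 1, 1 to 3 with 1 library left out (2 without LGCAR 3, 3 without LG 2), 15 without a filter, 20 by DESeq2 and 2 without NG 1 and LGCAR 3. In the interaction it was 1, 1 to 3 with 1 library left out (2 without NG 1, 3 without NG 2), 2 without a filter, 4 by DESeq2 and 2 without NG 1 and LGCAR 3. Between CAR and NG it was 0, with 2 without NG 1, 1 without NG 2 or NG 3, 1 by DESeq2 and 2 without NG 1 and LGCAR 3. With library totals, 178 of 256 calls between LG and NG were higher (151 of 261 with TMM) and 94 of 351 between LGCAR and CAR (147 of 249 with TMM).

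Same-numbered libraries of different groups had correlations of their deviations from -0.45 to 0.38, over 0.1 in every pair only between NG and LG, and 3 of 12 correlated best with their own number. With the replicate number as a block, 147 genes were called between LG and NG, 682 between LGCAR and NG, 135 between LGCAR and CAR, 1 each between LGCAR and LG and in the interaction, and none between CAR and NG, and the members called were as many as without it. In LGCAR against NG the calls of ACACB, DDIT4, SLC2A1, INSR and ARRB1 were lost, and in LGCAR against CAR that of ITGB4.

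Signs turned only for uncalled differences near 0; the cause was not tested. ARRDC1 in LGCAR against NG was -0.0078 with RLE factors, -0.011 with library totals, -0.014 without a filter, -0.0083 with at least 1 CPM in 3 libraries, -0.00086 with the block, -0.010 without ribosomal RNA genes, -0.022 without NG 1 and LGCAR 3, -0.0072 with the groups alone and -0.0092 by DESeq2. ARRDC3 in LGCAR against CAR was -0.0033 with RLE factors, -0.050 with library totals, -0.025 without a filter, -0.0051 with at least 1 CPM in 3 libraries, -0.0019 with the block, -0.0036 without ribosomal RNA genes, -0.0068 with the groups alone, -0.0041 by DESeq2 and -0.0027 by limma-voom. ARRDC3 was -0.031 in the interaction with library totals, and 0.012 against NG and 0.035 against LG in LGCAR without NG 1 and LGCAR 3. With 1 library left out, ARRDC1 ran from -0.050 to 0.055 (LGCAR against NG), -0.016 to 0.021 (CAR against NG) and -0.063 to 0.046 (LGCAR against CAR). ARRDC3 ran from -0.048 to 0.066 (LGCAR against CAR), -0.10 to 0.0063 (LGCAR against NG), -0.072 to 0.035 (LGCAR against LG) and -0.017 to 0.095 (interaction). ARRDC4 ran from -0.11 to 0.091 (CAR against NG), -0.023 to 0.28 (LGCAR against LG) and -0.043 to 0.28 (interaction), turning without NG 3 or CAR 1, then without LG 2.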

Other observations

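Of the 20 genes with a promoter window that held the CACGNG repeat, 16 were tested. TXNIP was the only one of them called in LG against NG, LGCAR against NG, LGCAR against CAR, LGCAR against LG and the interaction. In each of these it made up 6.25% of the 16. Of all tested genes 1.73%, 8.75%, 1.65%, 0.00662% and 0.00662% were called, in that order. Of 1407 tested genes with CACGTG in a window, 21 rose and 12 fell between LG and NG, or 2.35%, against 1.73% of all tested genes, with a median of 0.01 in both. The letters were chosen with the TXNIP promoter known, and no test was made. TXNIP was thus bound to be among the 16, and the 6.25% cannot be read as an enrichment.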
